A study of Mus musculus with 10 samples.

Results

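Dual-specificity MAPK phosphatases and Sprouty proteins switch off the MAP kinase pathways that depolarization activates in neurons. The genes described here were chosen by name: the phosphatase genes Dusp1, Dusp4, Dusp5, Dusp6, Dusp8, Dusp10 and Dusp14 and the Sprouty genes Spry1, Spry2 and Spry4. Of these 10 genes, 8 had counts, on 13 of the 22534 transcripts in the files, and the remaining pair, Spry2 and Spry4, was not analysed here. Mixed neuron-glia cultures were prepared from the cortex of newborn (P0) FVB mouse pups of both sexes and grown for 7 days. The comparison is between 3 untreated cultures (numbered 1, 2 and 3) and 2 KCl-stimulated cultures (4 and 5), which received 55 mM KCl for 3 h. All cultures of both groups received cycloheximide, which stalls ribosomes on mRNA, at 100 ug/ml for 7 min before lysis. RNAseq, which measures transcript abundance, and ribosome footprinting (RF), which measures ribosomal occupancy, were made from each culture. The study made another KCl replicate and dropped it because its library was small. A culture is a mixture of cell types, so a change of a transcript in 1 cell type and a change in the number of those cells cannot be told apart in any result given here.

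RNAseq libraries held between 3056286 and 3629959 counted reads and RF libraries between 1463654 (untreated culture 3) and 7719915. All markers with counts of neurons, astrocytes, microglia, the oligodendrocyte lineage, endothelial and mural cells and fibroblasts were above 0, and Map2 and Col1a2 had no counts. Summed RPKM (reads scaled to transcript length and library size) of the 5 neuron markers lay between 176 and 240 in untreated and between 199.6 and 200.3 in KCl cultures. The 5 endothelial and mural markers together lay between 5.88 and 7.47 in untreated and between 2.81 and 3.05 in KCl cultures. Astrocyte markers ranged from 2679 to 3139 and from 2297 to 2443, microglia markers from 127 to 142 and from 101 to 110.2, oligodendrocyte lineage markers from 1221 to 1377 and from 1132 to 1151, and fibroblast markers from 118 to 143 and from 95.7 to 111, in each case lower in both KCl cultures. Tested one by one in edgeR, 1 marker of each of these 5 non-neuronal lists was called lower and none higher. Those lower were Aqp4, Cx3cr1, Pdgfra, Pdgfrb and Lum, from lists of 6, 6, 6, 5 and 3 markers with counts. Of all transcripts with a read, 18.5% were called, 8.40% lower and 10.1% higher. Markers that were not called went both ways, for example Slc1a3 (-0.34 on the log2 scale) and Aldoc (0.23) among astrocyte markers. The part of the lower sums in the results was not tested.

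MAP kinases are activated when an upstream kinase phosphorylates a threonine and a tyrosine in their activation loop. Dual-specificity phosphatases remove both phosphates, and they differ in where they act and on which kinase: ERK, which growth factors and calcium entry activate, or the stress-activated kinases JNK and p38. Sprouty proteins act further upstream, between receptor tyrosine kinases and Ras. Many of these genes are themselves induced by the kinases they restrain, which makes them a negative feedback, and depolarization with KCl is a standard way to open voltage-gated calcium channels and activate the pathway in neurons.

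Sequences upstream of 3 of these genes are shown first, since they hold elements of the kind through which calcium and ERK signalling are known to reach a promoter. The cAMP response element (CRE, TGACGTCA) binds CREB, and the CArG box binds serum response factor. RefSeq promoter windows of 300 bases (from 250 before to 50 after the annotated start, build GRCm38.p6) were matched for 7 of the 8 genes. No window was at hand for Dusp4. Both strands were searched. The windows below are written 5′ to 3′ on the strand of the gene, with the matched element in capitals, and come from the reference genome and not from the FVB strain of these cultures. The first 3 show the CRE matches, at positions -143 in Dusp1 and -107 and -63 in Dusp8 relative to the start, and the last pair the CArG boxes of Dusp5 at -82 and -72.
Dusp1, chr17:26508597-26508626 (minus strand): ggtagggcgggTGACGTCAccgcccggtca
Dusp8, chr7:142095373-142095402 (minus strand): gcccgctccgcTGACGTCAcctgcccccga
Dusp8, chr7:142095329-142095358 (minus strand): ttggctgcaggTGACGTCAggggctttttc
Dusp5, chr19:53529053-53529082 (plus strand): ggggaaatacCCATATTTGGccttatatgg
Dusp5, chr19:53529063-53529092 (plus strand): ccatatttggCCTTATATGGgcactcacgt

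A CRE was present in 1.79% of all 32851 promoter windows of this length and a CArG box in 1.63%. The Dusp5 windows overlap, since its CArG boxes adjoin each other. The CRE core (TGACG), which also counts on each strand within each full CRE, was present in 20.8% of all windows. It matched 3 times in Dusp1 (-191, -143 and -140), 4 times in Dusp8 (-107, -104, -63 and -60) and once in Dusp5 (-55). All Dusp8 matches of the core lie within its full CREs, as do those of Dusp1 other than the match at -191. None of these elements was found in the windows of Dusp6, Dusp10, Dusp14 and Spry1. The AP-1 site TGANTCA (7.81% of all windows), the ETS site CCGGAAGT (3.89%) and TATAAA (13.6%) were found in none of the 7 windows. A match is a description of these letters in this window and not a measured binding site. Dusp10, which also rose in RNAseq as given below, holds none of them. A link between these elements and the KCl changes was not tested.

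Transcript abundance rose with KCl for 4 of the 8 genes (Dusp1, Dusp8, Dusp10 and Dusp5) and fell for none, against 18.5% of all 22374 transcripts with at least 1 read called in either direction, 10.1% higher and 8.40% lower. Ribosomal occupancy of the CDS rose for 5 of the 8 (the same 4 and Dusp14) and fell for none, against 23.7% called, 12.3% higher and 11.5% lower. Translation efficiency (TE), the occupancy of the CDS relative to transcript abundance, was called for 0 of the 8 by edgeR, against 1.76% of all transcripts. Without adjustment, 1 gene (Dusp8) had a TE p under 0.05, and DESeq2 called 0. A call here is an adjusted p under 0.05 in edgeR's quasi-likelihood test with Benjamini-Hochberg adjustment over all 22374 transcripts. The median log2 fold change over the 8 genes was 0.76 for RNAseq and 0.71 for RF, beside medians of -0.00 and 0.00 over all transcripts. Library totals in place of TMM scaling moved the medians of all transcripts to -0.14 and -0.16, and the calls over all transcripts from 2261 higher and 1880 lower to 1644 and 2899 for RNAseq, and from 2746 higher and 2565 lower to 1722 and 3962 for RF.

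Only Dusp1 and Dusp14 were measured, that is, passed an expression filter made after that of the study (RPKM of at least 10 in both assays of a culture, in at least 2 cultures). It left 7262 transcripts. The wording of the study's filter allows other readings, and the number it left there was not the same. Among those transcripts, 33.0% were called for RNAseq, 40.9% for RF and 5.80% for TE. Dusp1 was called there for RNAseq and RF, Dusp14 for RF, and neither for TE. The other 6 genes lay below the filter. Dusp8 passed it in culture 4 alone. All 8 genes are therefore described from the fit over all transcripts with a read, so that their values share a scale. Values of single cultures are normalised CPM, that is, reads scaled to the size of the library after TMM. RNAseq values count reads on all regions of the transcript and RF values count footprints on the CDS. Fold changes are on the log2 scale, KCl over untreated, with an approximate SE.

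**Figure D1:**
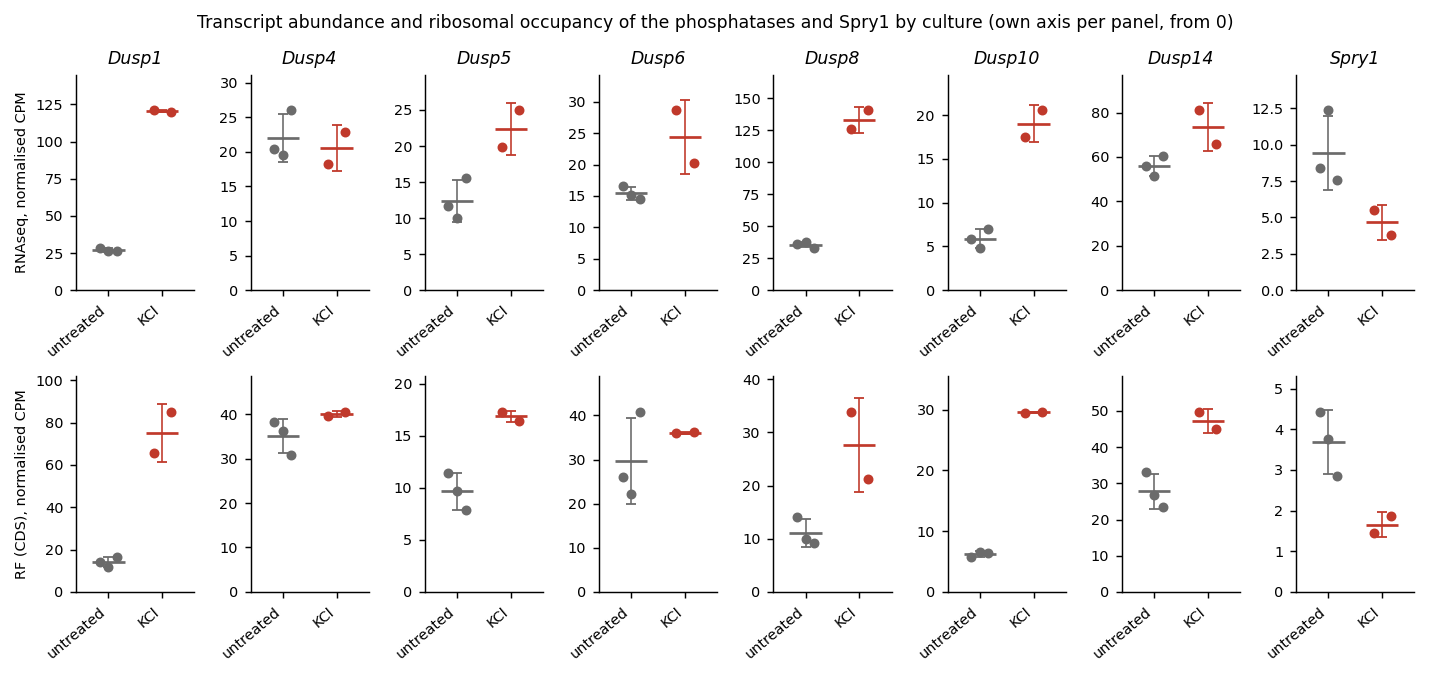
RNAseq (upper row) and RF on the CDS (lower row) in normalised CPM for each of the 8 genes, with 1 point per culture, group means as bars, SD as whiskers (n = 3 untreated, n = 2 KCl) and an axis from 0 in every panel. In both assays the KCl cultures lay above all untreated cultures for Dusp1, Dusp5, Dusp8, Dusp10 and Dusp14 and below them for Spry1, while Dusp4 overlapped in RNAseq and Dusp6 in RF.

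Dusp1 encodes a nuclear phosphatase of p38, JNK and ERK that is a classical immediate early gene. Its transcript (ENSMUST00000025025, chr17:26505590-26508519, minus strand, GRCm38) had RNAseq values of 28.5, 26.2 and 26.3 without KCl and 120.9 and 120 with it. KCl cultures agreed closely with each other and lay far above all untreated cultures. The log2 fold change was 2.16 (SE 0.18, adjusted p = 2.284e-32), the largest RNAseq rise of the 8 genes. On the CDS, RF gave 14.1, 11.8 and 16.4 in untreated and 65.5 and 84.9 in KCl cultures, again without overlap. This was a log2 fold change of 2.50 (SE 0.18, adjusted p = 2.242e-41), and the TE difference of 0.32 (SE 0.27) had an adjusted p of 0.807. In the fit over the measured transcripts alone the Dusp1 changes were 2.10 for RNAseq (adjusted p = 3.281e-13) and 2.44 for RF (adjusted p = 6.071e-12).

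Dusp4 encodes a nuclear phosphatase related to that of Dusp1. Its transcript (ENSMUST00000033930, chr8:34807297-34819894, plus strand) gave RNAseq values of 20.4, 19.6 and 26.0 in untreated and 18.2 and 22.9 in KCl cultures. The groups overlapped, and the log2 fold change of -0.09 (95% interval -0.58 to 0.40) was not called (adjusted p = 0.867). RF values were 38.2, 36.1 and 30.7 in untreated and 39.6 and 40.4 in KCl cultures, a difference of 0.16 on the log2 scale (interval -0.20 to 0.51, adjusted p = 0.639). The intervals leave out a rise or fall of the size seen for Dusp1 in either assay.

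Dusp5 encodes a nuclear phosphatase specific for ERK. The gene lies at chr19:53529109-53542431 on the plus strand (ENSMUST00000038287), and an annotated antisense gene, AC137853.2, overlaps it. The RNAseq kit does not mark the strand, so reads of the pair cannot be told apart. RNAseq values were 11.6, 9.95 and 15.5 in untreated and 19.8 and 24.9 in KCl cultures, so that the groups did not overlap. The log2 fold change was 0.86 (SE 0.27, adjusted p = 0.0123). RF values were 11.4, 9.73 and 7.86 in untreated and 17.3 and 16.5 in KCl cultures, which is a change of 0.72 on the log2 scale (SE 0.27, adjusted p = 0.0375). Both calls rest on few reads, between 33 and 85 per RNAseq library and between 11 and 85 footprints per RF library. With DESeq2 neither was called (adjusted p = 0.0713 for RNAseq and 0.140 for RF). The Dusp5 RNAseq call was lost without culture 2 (0.0747) or culture 5 (0.266), and the RF call without culture 2 (0.0627), 3 (0.0660), 4 (0.165) or 5 (0.255).

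Dusp6 encodes the cytoplasmic phosphatase of ERK. RNAseq values of its transcript (ENSMUST00000020118, chr10:99263231-99267488, plus strand) were 16.6, 15.1 and 14.6 in untreated and 28.6 and 20.2 in KCl cultures. Both KCl values lay above the untreated values, by unequal amounts, and the log2 fold change of 0.66 (SE 0.26) was not called (adjusted p = 0.0561). Without culture 1 it was (adjusted p = 0.0424). RF values were 26.1, 22.3 and 40.7 in untreated and 36.0 and 36.3 in KCl cultures. Untreated culture 3, the shallowest RF library, lay above both KCl cultures, and the log2 fold change of 0.41 was not called (adjusted p = 0.110). Without culture 3 the Dusp6 RF change was 0.57 and was called (adjusted p = 0.0230).

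Dusp8 encodes a phosphatase of JNK and p38 with high expression in brain. Its transcript (ENSMUST00000039926, chr7:142079490-142095272, minus strand) had RNAseq values of 36.0, 37.4 and 33.3 in untreated and 126 and 140.5 in KCl cultures. This was the second rise after Dusp1, with a log2 fold change of 1.91 (SE 0.17, adjusted p = 7.506e-28) and no overlap. RF values on the CDS were 14.1, 9.89 and 9.29 in untreated and 33.8 and 21.3 in KCl cultures, which rose by less (1.18, SE 0.24, adjusted p = 1.389e-05). The TE difference of -0.68 (SE 0.30) had a p of 0.0226 and an adjusted p of 0.327 in edgeR, and is not a called change. Leaving out a culture moved the Dusp8 TE difference between -1.06 and -0.24, the latter without culture 5, in which 57 CDS footprints stood against 479 RNAseq reads.

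Dusp10 also encodes a phosphatase of JNK and p38. The transcript (ENSMUST00000048655, chr1:184034381-184075636, plus strand) was the scarcest of the 8 in untreated cultures, with RNAseq values of 5.81, 4.82 and 6.97 from 16 to 22 reads. In KCl cultures it had 17.6 and 20.5 from 54 and 70 reads. The log2 fold change was 1.70 (SE 0.32, adjusted p = 3.992e-06). RF values were 5.76, 6.59 and 6.43 in untreated and 29.5 and 29.6 in KCl cultures, which is a change of 2.25 on the log2 scale (SE 0.26, adjusted p = 2.757e-16) with close agreement within each group. Dusp10 showed the largest TE difference upward, 0.50 (interval -0.38 to 1.37), which was not called (adjusted p = 0.829).

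Dusp14 encodes a small atypical phosphatase that lacks the kinase-binding domain of the other phosphatases here. All 4 of its annotated transcripts were measured, and they hold the same CDS, so their footprint counts were identical in every library. They count as 1 observation. The described transcript (ENSMUST00000100705, chr11:84048041-84068357, minus strand) had RNAseq values of 55.8, 51.2 and 60.2 in untreated and 80.9 and 65.7 in KCl cultures. The groups did not overlap, but the log2 fold change of 0.39 (SE 0.17) was not called (adjusted p = 0.0964). Reads of the shortest of the 4 transcripts did overlap, with 65, 76 and 66 in untreated and 98 and 66 in KCl cultures. RF values were 33.1, 26.7 and 23.6 in untreated and 49.6 and 44.9 in KCl cultures, a called rise of 0.70 (SE 0.18, adjusted p = 8.882e-04). The difference between the assays is the TE difference of 0.34 for Dusp14 (interval -0.18 to 0.86, adjusted p = 0.760), so a call for RF and none for RNAseq does not show that they differed. In the fit over the measured transcripts Dusp14 had a change of 0.34 for RNAseq (adjusted p = 0.123) and of 0.63 for RF (adjusted p = 3.988e-03).

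Spry1 encodes an inhibitor of the signal from receptor tyrosine kinases to Ras and ERK. It was the 1 gene of the 8 with lower values in KCl cultures in both assays. RNAseq values of its transcript (ENSMUST00000038569, chr3:37639958-37644598, plus strand) were 8.43, 12.4 and 7.61 in untreated and 5.53 and 3.81 in KCl cultures. Its 3 annotated transcripts had identical counts in RNAseq and on the CDS. The groups did not overlap. The log2 fold change of -1.02 (SE 0.41) was not called (adjusted p = 0.0587), and it was called with library totals (-1.16, adjusted p = 0.0249) and without culture 1 (0.0421) or culture 3 (0.0456). RF values were 4.42, 3.77 and 2.86 in untreated and 1.44 and 1.87 in KCl cultures, the latter from 2 and 5 footprints (log2 fold change -1.18, SE 0.61, adjusted p = 0.161). A further gene model on the opposite strand, Gm42922, overlaps Spry1, and reads of the pair cannot be told apart. The summed markers of each of the 5 non-neuronal lists were also lower in the KCl cultures, as given above, though not every single marker was. The part of such shifts in the Spry1 values was not tested.

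**Figure D2:**
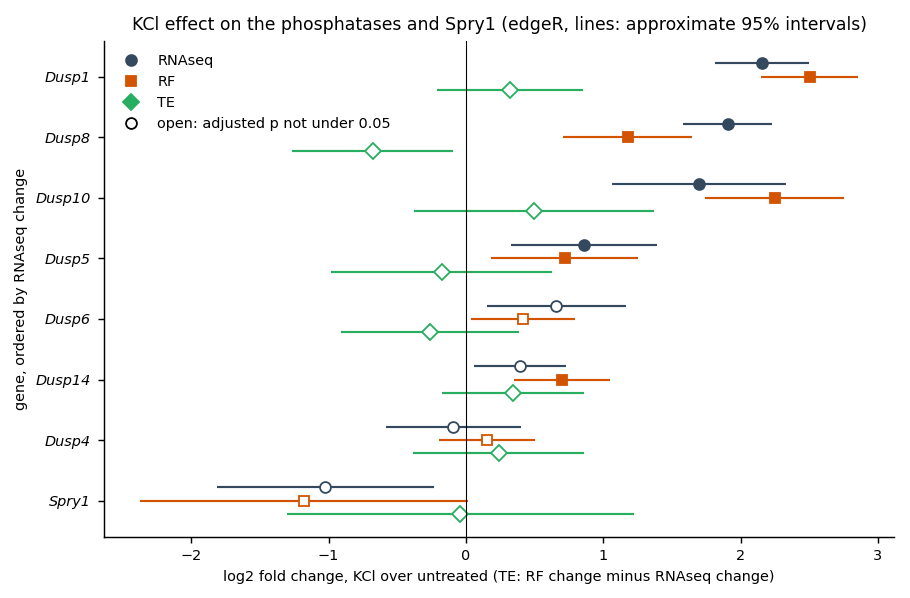
Log2 fold change of KCl over untreated cultures for RNAseq, RF and TE of each gene (edgeR, 3 against 2 cultures), with approximate 95% intervals as lines and open symbols where the adjusted p was not under 0.05. RNAseq and RF symbols of Dusp1, Dusp8 and Dusp10 lie furthest to the right, from 1.18 to 2.50, all TE symbols are open, and the TE symbol of Dusp8 lies furthest to the left at -0.68.

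Between-group overlap gave a wider count than the adjusted test. In normalised CPM, KCl cultures lay above all untreated cultures for 6 of the 8 genes in RNAseq, where 21.6% of all transcripts did so, and for 6 in RF (21.3% of all transcripts). In RPKM, without TMM, Dusp14 overlapped in RNAseq (highest untreated value 42.96, lowest KCl value 42.65). Dusp4 overlapped in RF by the same measure (30.92 and 28.64). KCl cultures lay below for Spry1 in both assays (20.3% and 22.8% of all transcripts). With 3 against 2 cultures there are 10 splits. The smallest p of an exact permutation is therefore 0.1 for a separation in 1 given direction, and larger for a separation in either direction.

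Per length, the phosphatase transcripts differed widely before stimulation. Mean untreated RNAseq RPKM was 40.0 ± 3.33 (SD, n = 3) for Dusp14, 14.1 ± 0.87 for Dusp1, 8.33 ± 1.29 for Dusp4, 7.69 ± 0.47 for Dusp8, 5.73 ± 0.46 for Dusp6, 5.19 ± 1.19 for Dusp5, 3.96 ± 1.03 for Spry1 and 2.18 ± 0.40 for Dusp10. Dusp4 and Dusp8, Dusp6 and Dusp5, and Dusp5 and Spry1 are neighbours in that order whose cultures overlapped. The remaining neighbours did not overlap. Of all 13184 genes, 91.0% had a lower value than Dusp14 and 34.2% a lower value than Dusp10. In the KCl cultures Dusp1 came first with 57.2 ± 0.80 RPKM (n = 2), then Dusp14 with 47.9 ± 7.43 and Dusp8 with 26.2 ± 1.78. Dusp8 passed Dusp4, which had 7.08 ± 1.08, and Spry1 was the lowest with 1.78 ± 0.48.

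TE in untreated cultures, as RF RPKM over RNAseq RPKM, placed the genes in a different order. Dusp6 (4.43 ± 1.65, n = 3) and Dusp4 (3.49 ± 0.84) stood at the top, above 89.2% and 82.1% of 8498 genes, whose median was 1.83. Dusp10 (1.96 ± 0.46) and Dusp5 (1.64 ± 0.55) lay near that median. Below it were Dusp14 (1.14 ± 0.23), Spry1 (0.98 ± 0.26), Dusp1 (0.88 ± 0.15) and Dusp8 (0.70 ± 0.14), and 9.66% of genes had a lower TE than Dusp8. All cultures of Dusp6 and Dusp4 lay above all cultures of the 4 genes at the lower end, while Dusp6 and Dusp4 overlapped each other. Dusp8 TE was 0.86, 0.60 and 0.62 in untreated and 0.59 and 0.33 in KCl cultures, and that of Dusp6 was 3.53, 3.42 and 6.33 against 2.80 and 4.00.

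**Figure D3:**
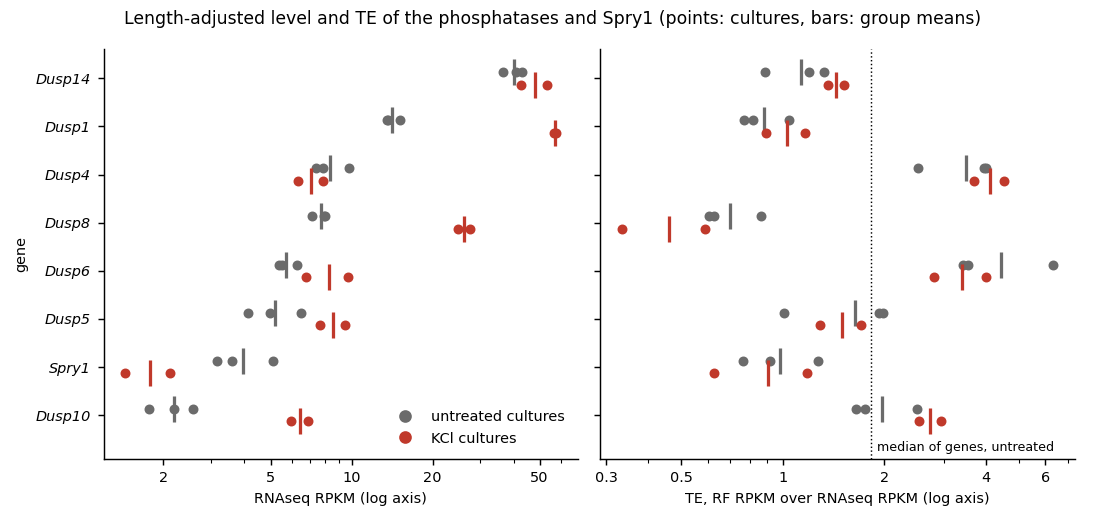
RNAseq RPKM (left) and TE as RF RPKM over RNAseq RPKM (right), both on log axes, for each gene in each culture, with group means as vertical bars and the median TE of 8498 genes in untreated cultures as a dotted line. Dusp1 and Dusp8 move furthest to the right in RNAseq with KCl, and Dusp4 and Dusp6 are the 2 genes with all cultures above the TE median in both groups.

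These TE values divide CDS footprints by RNAseq reads of the whole transcript, and RNAseq reads were spread unevenly over it. The CDS, 1449 of 2792 nt in Dusp10, took between 68.8% and 82.9% of the RNAseq reads of that gene in a library. In Dusp5 the CDS is 1152 of 2473 nt and took between 6.06% and 20%. In Dusp8 it is 1989 of 4804 nt and took between 15.2% and 22.6%, in Dusp14 594 of 1447 nt and between 8.95% and 18.5%. Levels and TE of different genes therefore depend on the regions counted. Between the groups, the share was 18.8% ± 3.68 in untreated and 18.4% ± 1.19 in KCl cultures for Dusp8, and 52.0% ± 5.41 and 44.1% ± 1.57 for Dusp1.

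Footprints on the 5′UTR were examined after the values of the CDS were known. Among footprints on the 5′UTR and CDS together, the 5′UTR of Dusp8 held 18.0% (95% Wilson interval 12.3% to 25.5%, 128 footprints), 16% (9.40% to 25.9%, 75) and 23.5% (9.56% to 47.3%, 17) in the untreated cultures. In the KCl cultures it held 37.3% (27.3% to 48.7%, 75) and 45.7% (36.5% to 55.2%, 105). Both KCl values lay above all untreated values, in terms of counts 28 and 48 against 23, 12 and 4, though the KCl RF libraries were shallower than untreated libraries 1 and 2. The intervals cover counting error only, and the share of all transcripts with such a separation was not counted.

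The number of Dusp8 footprints on the 5′UTR rose with KCl by 2.53 on the log2 scale (SE 0.40, adjusted p = 1.430e-07 in edgeR over 15851 transcripts, of which 2.73% were called). The same test called 1 further gene of the 8, Dusp1, at 1.72 (SE 0.40, adjusted p = 2.261e-03), and the Dusp1 call was lost without culture 5 (adjusted p = 0.774). The difference between the 5′UTR and the CDS response was 1.37 for Dusp8 (SE 0.53). It was not called by edgeR over all transcripts (unadjusted p = 9.283e-03, adjusted p = 0.405), of which 0.328% were. The median of that difference over all transcripts was -0.23 with TMM scaling and -0.02 with library totals, under which Dusp8 had 1.59 (adjusted p = 0.204). RNAseq gave 0, 0 and 0 reads on the Dusp8 5′UTR in untreated and 2 and 2 in KCl cultures, so its own abundance could not be followed.

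In the other genes the share on the 5′UTR showed no separation upward. For Dusp1 it was 19.2%, 22.7% and 17.86% in untreated and 12.5% and 17.75% in KCl cultures. Untreated culture 3 and KCl culture 5 were thus nearly equal, the former from 28 footprints (Wilson interval 7.88% to 35.6%). The Dusp1 difference between the 5′UTR and the CDS response was -0.80 and was not called by edgeR (adjusted p = 0.790). Dusp6 was the steadiest, between 26.0% and 30.9% in all 5 cultures. Dusp4 lay between 12.9% and 35.8%, Dusp5 between 3.13% and 20%, Dusp14 between 21.6% and 32.7%, and Dusp10 between 6.67% and 20.4%. Spry1 had the largest shares, 45.0%, 42.9% and 55.6% in untreated and 60% and 44.4% in KCl cultures, the KCl values from only 5 and 9 footprints.

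**Figure D4:**
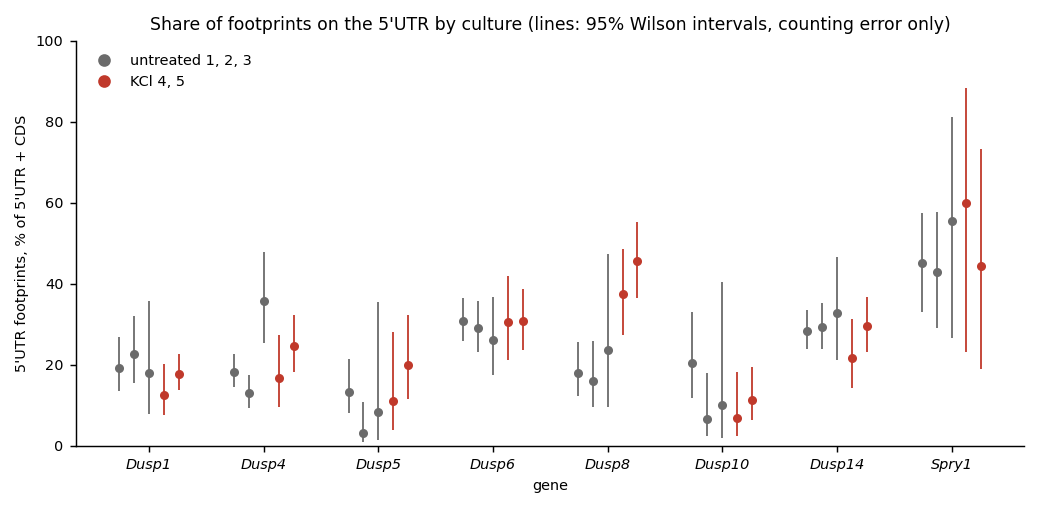
Share of footprints on the 5′UTR among those on the 5′UTR and CDS, in percent, for each gene in cultures 1 to 5 from left to right, with 95% Wilson intervals (counting error only). Dusp8 is the gene in which both KCl cultures (37.3% and 45.7%) stand above all untreated cultures (16% to 23.5%). The share of all transcripts that do so was not counted, and edgeR did not call its difference between 5′UTR and CDS response.

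The untranslated regions of the 8 transcripts differ in features that the choice of genes did not use. The 5′UTR of Dusp8 is 442 nt long, with 78.3% G and C (93.1% of 11564 genes had less) and 3 upstream AUG. Upstream AUG numbered 6 in Spry1, 4 in Dusp10, 2 in Dusp14 and 1 each in Dusp4 and Dusp6, with 0 in Dusp1 and Dusp5. Of all genes, 56.9% had at least 1. The 3′UTR of Dusp1 is 690 nt long and held the pentamer AUUUA, known from unstable immediate early mRNAs, at 5.80 per kb, more than in 95.7% of genes. The AU-rich nonamer (TTATTTATT) was found 2 times in the 3′UTR of Dusp1 and 1 time in that of Dusp8, in none of the other 6, and in 7.51% of all genes. Dusp10, which also rose in RNAseq, holds none, and a link between the nonamer and the KCl changes was not tested. The nonamer sites are given with 8 bases on either side (GRCm38, minus strand, nonamer in capitals).
Dusp1, chr17:26506161-26506185: gctggtccTTATTTATTtaacaccc
Dusp1, chr17:26505872-26505896: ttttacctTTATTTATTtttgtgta
Dusp8, chr7:142081717-142081741: tcgattttTTATTTATTtaagctag

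Other genes of the pathway were taken from lists by name, each by 1 transcript. Of 13 further Dusp genes with counts, 2 rose in RNAseq, none fell and 11 were not called. That is a share of 15.4%, beside 18.5% of all transcripts. Some of the uncalled genes had very few reads, such as Dusp13 (0 to 4 per RNAseq library) and Dusp9 (0 to 7). The share and the median change of this list, given below, include them. Dusp16, another phosphatase of JNK, had RNAseq values of 12.5, 11.2 and 12.99 in untreated and 50.1 and 44.3 in KCl cultures, and RF values of 13.3, 14.8 and 9.29 against 67.6 and 43.4. Its log2 fold changes of 1.95 (SE 0.23, adjusted p = 7.669e-15) and 2.01 (SE 0.20, adjusted p = 2.691e-22) were of the size seen for Dusp1, Dusp8 and Dusp10. Dusp3 rose by 0.70 (adjusted p = 2.432e-05) and 0.68 (adjusted p = 1.391e-04). In RF the same 2 rose, and Dusp11, Dusp15 and Dusp18 fell, a share of 38.5% beside 23.7% of all transcripts. DESeq2 called 2 of these genes in RF. Of the 3 other Sprouty and Spred genes, Spred1, like Sprouty an inhibitor upstream of ERK, fell in RNAseq (-0.50, adjusted p = 7.704e-03) and in RF (-1.10, adjusted p = 6.683e-07).

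For the MAP kinases and the MAP kinase kinases above them, RNAseq gave no call. In RNAseq edgeR called 0 of 12 MAP kinases (0 without adjustment, 0 with DESeq2) and 0 of 7 MAP kinase kinases (1 without adjustment, 0 with DESeq2), beside the 18.5% of all transcripts given above. Ribosomal occupancy fell for 2 of the 12 MAP kinases, Mapk4 (-1.22, adjusted p = 0.0381, from 3 and 9 footprints in the KCl cultures) and Mapk6, beside the 23.7% of all transcripts called, and DESeq2 called 1. Mapk6, which encodes the atypical kinase ERK3, was the single gene of all these lists with a called TE in the fit over all transcripts. Its RNAseq values were 131, 118 and 110.3 in untreated and 142 and 129.9 in KCl cultures, and its RF values 38.5, 43.2 and 32.2 against 12.95 and 12.35. RNAseq overlapped between the groups while RF did not. The Mapk6 TE difference was -1.76 (SE 0.28, adjusted p = 4.701e-07), and it was called in each alternative fit that held Mapk6 and with each culture left out. Among measured transcripts alone, TE was also called for Dusp18 (adjusted p = 0.0433) and Fos (adjusted p = 0.0387).

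Upstream of the kinases, 4 of 18 genes of the Ras-Raf module and its adaptors rose in RNAseq and none fell, a share of 22.2% beside the 18.5% of all transcripts, and DESeq2 called 2. In RF 1 rose (5.56% beside 23.7%), and Grb2, counted in this share, had 0 footprints in every library. Of 11 receptor tyrosine kinases 1 rose (Fgfr2, 1.07, adjusted p = 7.252e-13) and 6 fell, the largest falls being those of Erbb3 (-1.40, adjusted p = 0.0334), Pdgfrb (-1.06, adjusted p = 4.350e-03) and Met (-0.74, adjusted p = 0.0129). The called share of receptors was 63.6%, beside 18.5% of all transcripts, and DESeq2 called 4 of the 11 receptors. Pdgfrb is also one of the endothelial and mural markers, and Pdgfra, which fell too (-0.68, adjusted p = 1.478e-03), one of the oligodendrocyte lineage. Among 11 other output genes of ERK 6 rose and 2 fell in RNAseq (DESeq2 called 8), with Epha2 (1.98, adjusted p = 1.917e-03) and the immediate early gene Fos (1.64, adjusted p = 1.649e-17) at the top. The called share of these output genes in RNAseq was 72.7%, beside 18.5% of all transcripts. In RF, 1 receptor rose and 4 fell, and 6 output genes rose and 1 fell. These are shares of 45.5% and 63.6%, beside 23.7% of all transcripts. Of the 11 output genes 8 were measured, and of the 11 receptors 5. Among measured transcripts 33.0% were called in RNAseq and 40.9% in RF, so the shares of all transcripts are a low comparison for these genes. Median RNAseq changes were -0.17 for the other Dusp genes, -0.14 for the other Sprouty and Spred genes, 0.12 for the MAP kinases, 0.28 for the MAP kinase kinases, 0.33 for the Ras-Raf module, -0.54 for the receptors and 1.01 for the output genes, beside 0.76 for the 8 genes described here.

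**Figure D5:**
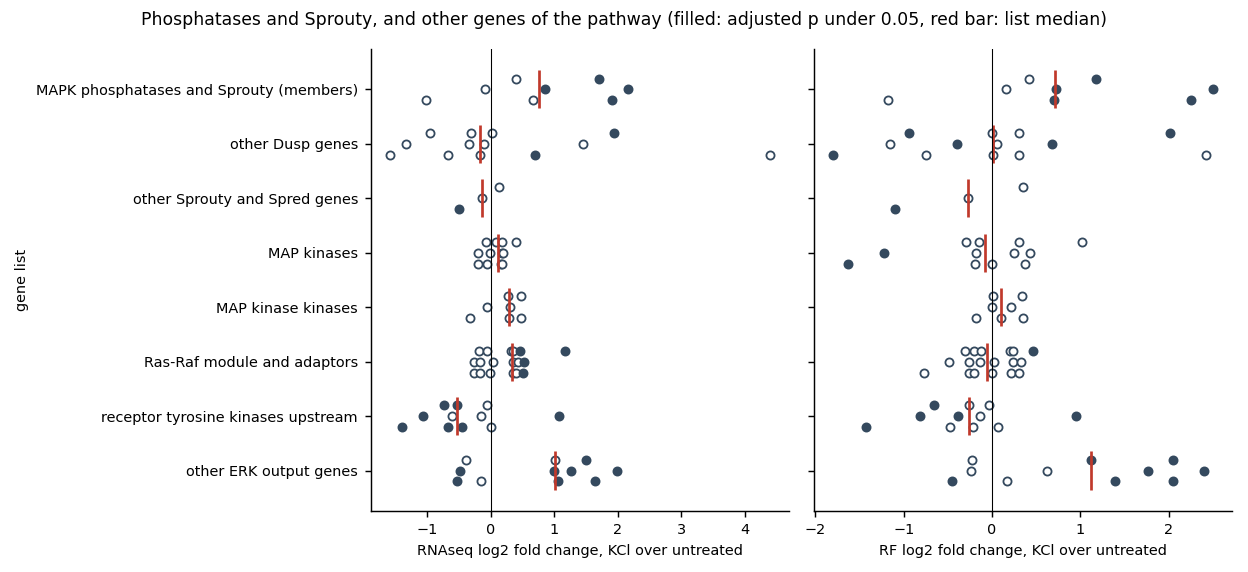
Log2 fold change of KCl over untreated cultures in RNAseq (left) and RF (right), 1 point per gene, for the phosphatase and Sprouty genes and 7 further lists of the pathway, with called genes filled and the list median as a red bar. The phosphatase and Sprouty genes and the other output genes of ERK have medians of 0.76 and 1.01 in RNAseq, while the MAP kinases have no filled point there.

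Among the 4369 genes with a measured transcript, those whose values over all 10 libraries lay closest to Dusp1 were Ccn2 (a distance of 0.45 on the log2 scale, centred within each assay), Khdc4 (0.47) and Chka (0.47). Their RNAseq rises were 1.94, 2.00 and 2.05 and their RF rises 2.24, 2.28 and 2.17, beside 2.16 and 2.50 for Dusp1.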

How the data were processed

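RNAseq and RF libraries of 3 untreated and 2 KCl-stimulated cultures were used, grouped by their labels. The authors trimmed reads with Trimmomatic 0.32, removed rRNA with STAR 2.3.1z8, aligned to the mm10 transcriptome with Bowtie2 2.2.2, kept reads of several transcripts, and deposited raw counts per transcript region from bedtools 2.20.1. A read on several isoforms is counted for each, so RPKM and CPM rest on totals that hold such reads more than once. Letters of the regions were assigned from read shares and annotated lengths (the 5′UTR by its order and RF share as well), and 1 region has no name.

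Of 22534 transcripts, 22172 (98.4%) were matched to GENCODE M21. Counts were tested with edgeR 4.0.16 in R 4.3.3 (quasi-likelihood, robust, TMM within each assay, Benjamini-Hochberg), TE as the assay-by-treatment interaction, blocked by culture, because the RNAseq and RF libraries of a culture come from the same lysate. Correlations of their deviations from the group means were between -0.075 and 0.066. SE is the absolute log2 fold change over the square root of F, an approximation, and 95% intervals use it. Nothing says how independent the cultures were, so p-values measure the spread between these samples.

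Each gene is described by its transcript with the most RNAseq reads among measured transcripts, or among all where none was measured. From the other lists are named the 3 largest called RNAseq rises and falls and any gene with a called TE. Dusp3, Dusp11, Dusp15, Dusp18, Spred1, Fgfr2, Pdgfra, Mapk4, Aqp4, Cx3cr1 and Lum were added after their values were seen. Genes and lists were chosen with earlier results of these data known. In counts simulated for the fit over 22374 transcripts, with 200 changed, edgeR called 58% of RNAseq, 58% of RF and 15% of TE log2 changes of 1, and 100%, 100% and 98% of log2 changes of 2. The changed transcripts were drawn above a floor of mean counts in both assays, which Spry1 did not reach. All counts had the same fixed dispersion, so these shares may not hold for genes with few reads or footprints. Alternatives were DESeq2 1.42.0, library totals, filterByExpr, at least 100 reads, RNAseq on the CDS, TMM over all 10 libraries, no block, each culture left out and, added after the data were seen, 1 transcript per gene and the fits of the 5′UTR.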

Additional observations from a re-analysis of the deposited data

How the results depend on the processing

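Calls of Dusp1, Dusp8 and Dusp10 (RNAseq and RF) and of Dusp14 (RF) held with DESeq2, library totals, 1 transcript per gene and each culture left out. With at least 100 reads in every library, RNAseq called 0 of the 1 measured gene left and 1 of the 2 genes left without the RPKM filter, since fewer genes were tested. Leaving out each culture gave between 3 and 6 called genes of 8 for RNAseq, between 4 and 5 for RF and 0 for TE. Without the replicate block for culture, TE called 0 of 8 genes and the difference between the 5′UTR and CDS of Dusp8 was 1.34 (adjusted p = 0.103), so the block changed no call. No paired analysis of the KCl effect within an assay was possible because untreated and KCl cultures share no numbers.

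Some uncalled changes turned their sign, and the cause was not tested. With RNAseq on the CDS, Dusp4 was 0.29 for RNAseq and -0.10 for TE, and Dusp5 RNAseq was 1.47 but no longer called (adjusted p = 0.135). With library totals, Dusp4 RF was -0.007, and the Dusp5 RF call was lost (adjusted p = 0.126). With a culture left out, Dusp4 RNAseq ranged from -0.27 to 0.062 (0.044 without culture 3, 0.062 without culture 4), Dusp5 TE from -0.40 to 0.055 (without culture 5), and Spry1 TE from -0.59 to 0.31 (0.25 without culture 1, 0.31 without culture 4). Dusp6 RNAseq was called with filterByExpr (adjusted p = 0.0469) and 1 transcript per gene (0.0489). Counts summed over the transcripts of a gene were not run, because isoforms share reads. Few footprints, down to 2 for Spry1, limit what TE can show.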
